A study of Mus musculus with 18 samples.

Results

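The results below concern the difference between the 2 effects of imiquimod on gene expression in plasmacytoid dendritic cells (pDCs): the effect at 16 h minus the effect at 6 h, each taken against the vehicle of the same time. The contrast used 12 of the 18 libraries of the series, 3 in each of 4 groups, and was fitted for all 14876 genes that passed the filter on low counts, of 54532 in the table. The groups were vehicle for 6 h, imiquimod at 2.5 µg/mL for 6 h, vehicle for 16 h and imiquimod at 2.5 µg/mL for 16 h. The vehicle is marked LAL in the sample titles, and the labels give no dose for it. All cells were grown from the marrow of C57BL/6 mice labelled as wild type, for 7 days with Flt3L at 80 ng/mL, and were enriched with beads against B220 to a routine purity of 80%. They are therefore culture-derived cells with other cells among them, and the sources used here give neither the age of the mice nor how many were pooled. Total RNA was sequenced after removal of rRNA, as paired reads of 75 nucleotides. The labels do not say whether replicates were separate cultures or mice, so p-values rest on the variation among these libraries alone, and part or all of it may be technical. The 12 libraries held 10609741 to 13447018 counts in genes, with 11.8% to 13.2% of the counts in rRNA and rRNA-like genes in the imiquimod libraries and 15.5% to 17% in the vehicle libraries.

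pDCs carry Toll-like receptor 7 (TLR7) in their endosomes, where it senses single-stranded RNA, and imiquimod is a small synthetic ligand of that receptor. Signals from TLR7 pass through the adaptor MyD88 to the transcription factors IRF7, which drives type I interferon genes, and NF-kappaB, which drives cytokine and co-stimulation genes. Secreted interferon then acts back on the cells and turns on interferon-stimulated genes. Early inducible transcripts of such responses are often short-lived, whereas metabolic and cell-cycle transcripts can follow later, so a single time point does not show which effects last.

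In each gene the difference of effects is a log2 value, so that a difference of 1 is a doubling. A negative value means that the imiquimod effect was lower at 16 h than at 6 h, either because an increase had shrunk or because a decrease had deepened. The same value equals the change from 6 h to 16 h in the imiquimod arm minus the change in the vehicle arm, and both readings are used here. Levels are given as CPM, counts scaled to a common library size by edgeR, and they are not adjusted for gene length, so they compare samples and not genes. Calls were made with edgeR's quasi-likelihood test: a gene counts as called where its p, adjusted by Benjamini-Hochberg over all genes tested, was under 0.05, and every adjusted p below is of that kind.

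The imiquimod effect differed between the times in 8468 genes (56.9%), higher at 16 h in 4246 (28.5%) and lower in 4222 (28.4%). The difference was at least 2-fold in 2749 of them (18.5%). At 6 h alone 76.9% of the genes were called against vehicle, and at 16 h alone 77.2%. Counts of list members called in the difference, given below, are to be read beside the shares over all genes of 28.5% higher and 28.4% lower. The even split depended on the scaling: when libraries were scaled by their totals in place of TMM (trimmed mean of M-values) factors, 6950 genes were higher and 2259 lower, and the median difference over all genes moved from -0.01 to 0.33. The scaling factors of the 3 imiquimod 6 h libraries were 0.817 to 0.837, against 1.01 to 1.07 in the other 9, so directions below are relative to the TMM scale, and the split of a described list on library totals is given where its share of higher calls moved by over 10 percentage points. Genes near a difference of 0 are the ones whose direction turns with that choice.

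Every gene was then sorted by the size of both effects. An effect was counted as large when it was called and at least 2-fold. Transient effects were large at 6 h and under 2-fold at 16 h, with a called difference of at least 2-fold, and there were 359 transient increases and 387 transient decreases. Late effects, the mirror image, numbered 435 increases and 254 decreases. Sign-reversing effects were called in opposite directions at the 2 times and at least 1.5-fold at each, with a called difference. They numbered 73 from up to down and 148 from down to up. A further 3340 genes (22.5%) had a large effect in the same direction at both times: 1546 increases and 1794 decreases. Of the sustained increases, 168 were larger at 16 h, 499 were smaller, 206 were held with the 95% interval of the difference within 0.5 of 0, and 673 fell in none of these. Of the sustained decreases, 275 were deeper at 16 h, 274 shallower, 254 held and 991 undecided. Another 1927 genes were large at 1 time and too near the limits to be sorted, and 7953 were large at neither time.

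**Figure D1:**
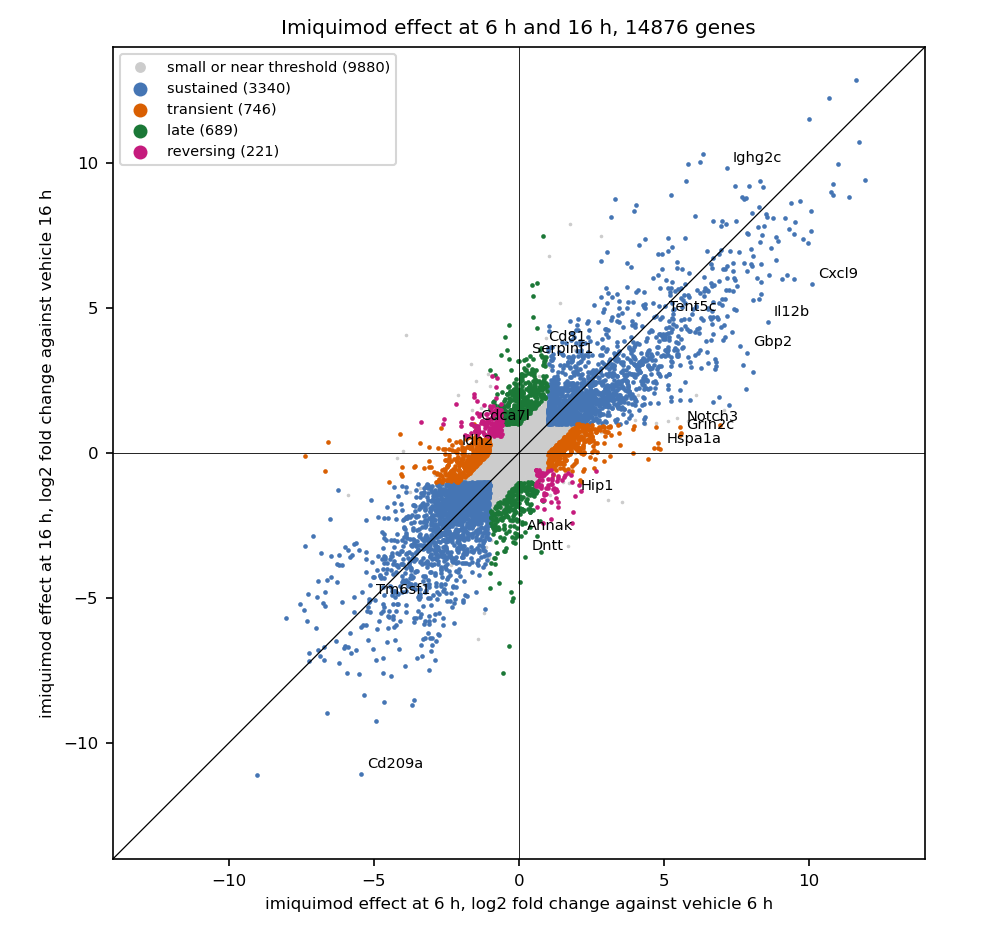
Imiquimod effect at 6 h (x axis) and at 16 h (y axis), as log2 fold changes against the vehicle of the same time, for 14876 genes coloured by kinetic class; the diagonal marks equal effects. The 746 transient genes lie along the x axis, the 689 late genes along the y axis, and the 221 sign-reversing genes above left and below right of the crossing at 0.

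Since the difference of effects has a vehicle part as well as an imiquimod part, each class was divided by which arm had moved. From 6 h to 16 h, 63.7% of genes were called in the imiquimod arm and 30% in the vehicle arm, and 16.2% and 4.26% were called with a change of at least 2-fold. Transient increases were mostly a return of the imiquimod arm: in 253 of the 359 only that arm changed at least 2-fold in the direction of the difference, in 27 only the vehicle arm had risen, in 5 both, and in 74 neither reached 2-fold. Late increases were more mixed, with 184 from the imiquimod arm, 100 from a fall in the vehicle arm, 25 from both and 126 from neither. Among the 148 genes that reversed from down to up, 53 owed the 2-fold change to the vehicle arm only, compared with 5 of the 73 that reversed from up to down. Of the 499 waning increases, 209 had fallen at least 2-fold in the imiquimod arm alone, and in 76 only the vehicle arm had risen. These are counts of what moved and the shares were not tested against each other.

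**Figure D2:**
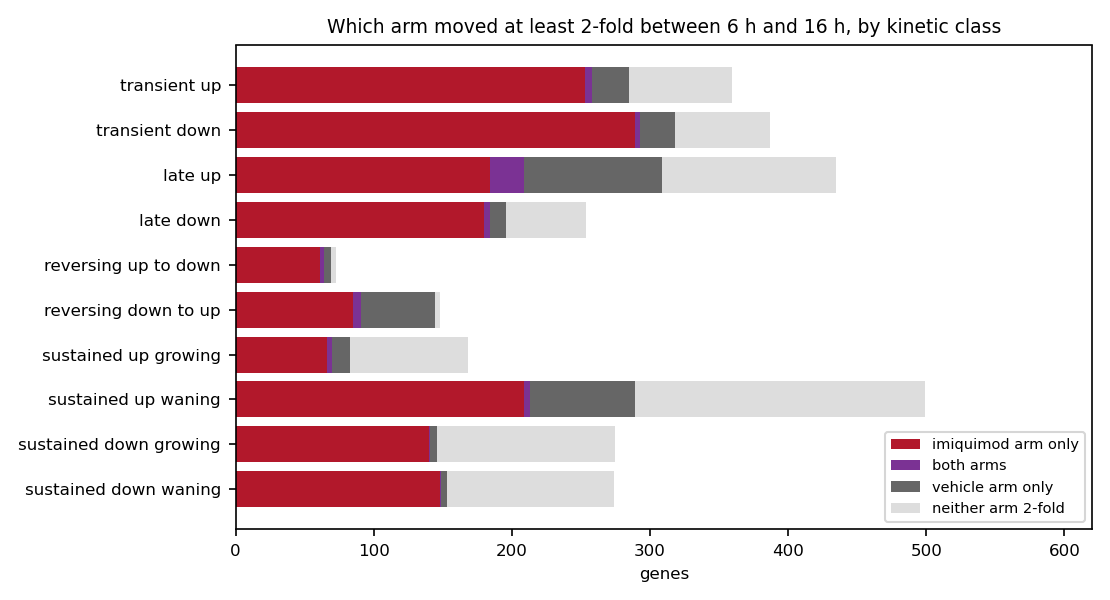
Number of genes (x axis) in 10 kinetic classes by the arm that changed at least 2-fold between 6 h and 16 h in the direction of the difference. The vehicle arm alone holds 100 of the 435 late increases and 53 of the 148 reversals from down to up.

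The largest transient increases belonged to chaperone genes and signalling receptors. Hspa1a and Hspa1b, near-identical neighbours on chromosome 17 that encode the inducible heat shock protein HSP70, were high at 6 h of imiquimod only. Hspa1b stood at 5.52, 5.71 and 3.86 CPM in the vehicle libraries at 6 h, at 138, 139.6 and 142 with imiquimod, at 4.87, 5.59 and 4.44 in vehicle at 16 h and at 5.12, 5.33 and 6.49 with imiquimod at 16 h. The 6 h imiquimod libraries lay far above the other 9, whose ranges overlapped. The difference of effects was -4.61 (SE 0.19, adjusted p = 3.85e-34), and that of Hspa1a was -4.73 (SE 0.29, adjusted p = 9.34e-20). Reads may have been shared between these copies, so their separate values are uncertain. Grin2c, which encodes a subunit of the NMDA-type glutamate receptor, had the largest difference of the class. It was at 1.40, 0.771 and 1.31 CPM in vehicle at 6 h and 52.5, 51.2 and 59.8 with imiquimod, and at 16 h it was at 7.99, 6.47 and 4.61 in vehicle and 9.36, 9.61 and 10.0 with imiquimod. Both arms contributed, since its vehicle level rose by 2.44 while its imiquimod level fell by 2.50 on the log2 scale, for a difference of -4.94 (SE 0.28, adjusted p = 1.81e-30). Notch3, a Notch receptor, lay between 81.2 and 83.8 CPM with imiquimod at 6 h and at or under 3.37 CPM in the other 9 libraries, a difference of -4.67 (SE 0.30, adjusted p = 7.22e-22).

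Of 13 tested heat shock chaperone genes, 9 were lower and 1 higher in the difference, with a list median of -1.02 beside -0.01 over all genes, and 6 were transient increases. On library totals 9 were lower and 3 higher. Dnaja1 (-1.44), which helps HSP70 bind its clients, and Hspa8 (-1.34), the constitutive HSP70, were among those called. The exception was Hspd1, the mitochondrial chaperonin HSP60, whose increase was larger at 16 h (2.11 at 6 h and 2.58 at 16 h). Its partner Hspe1 was held, at 1.34 and 1.37.

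Of the lists described here, cholesterol synthesis had the largest share of transient increases. All 21 tested members were lower in the difference (median -1.52), and 17 of them were transient increases. Hmgcs1, the synthase that makes HMG-CoA at the start of the pathway, was at 302, 327 and 321 CPM in vehicle and at 2050.0, 2107 and 2079 with imiquimod at 6 h. At 16 h it was at 231, 225 and 242 in vehicle and 415, 406 and 409.7 with imiquimod. Imiquimod libraries were above vehicle at both times without overlap, but the effect shrank from 2.71 to 0.82, a difference of -1.90 (SE 0.05, adjusted p = 2.17e-49). Fdps (-1.83), which makes farnesyl pyrophosphate, Msmo1 (-1.81), a sterol demethylating oxidase, and Hsd17b7 (-1.78) followed. Insig1, which restrains the sterol-sensing transcription factors, was transient, with effects of 1.39 at 6 h and -0.33 at 16 h. Hsd17b7 and Idi1 stayed large at both times, and Srebf2, the transcription factor of the pathway, was under 2-fold at both. The median change from 6 h to 16 h was -1.78 in the imiquimod arm and -0.29 in the vehicle arm. In the list of LXR targets and lipid export genes, which act in the opposite branch of sterol balance, 7 of 10 tested members were lower and 0 higher, though 3 were called higher and 4 lower when libraries were scaled by their totals.

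Transient decreases were led by Plbd1, Idh2, Fcrla and Kcnab2. Idh2, the mitochondrial isocitrate dehydrogenase that makes NADPH, was at 48.1, 53.6 and 55.0 CPM in vehicle and 11.6, 10.8 and 11.8 with imiquimod at 6 h. At 16 h the libraries were at 45.8, 46.3 and 46.7 in vehicle and 47.1, 47.8 and 50.9 with imiquimod, so the low level at 6 h was gone, and the difference was 2.27 (SE 0.10, adjusted p = 7.98e-34). Plbd1, a phospholipase B-like gene, had the largest difference of the class (2.31, SE 0.09, adjusted p = 6.23e-22), with effects of -1.98 and 0.33. Fcrla, an Fc receptor-like gene, and Kcnab2, a subunit of voltage-gated potassium channels, recovered in part: their effects were -2.45 and -2.49 at 6 h and -0.41 and -0.48 at 16 h. A pair of listed genes belonged to this class as well. Zmat3, a p53 target, was at 7.94, 7.16 and 6.68 CPM with imiquimod at 6 h against 25.3, 23.5 and 24.7 in vehicle, and at 33.2, 32.0 and 27.2 against 26.6, 26.2 and 25.2 at 16 h (difference 2.000, SE 0.14, adjusted p = 1.1e-23). Ptpn22, a phosphatase that restrains antigen receptor signalling, had effects of -1.02 and 0.29.

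Late increases were headed by Serpinf1, Cd81, Exo1 and Lars2. Cd81, a tetraspanin that organises membrane receptors, was at 5.76, 5.09 and 5.33 CPM in vehicle and 10.9, 9.49 and 7.46 with imiquimod at 6 h, a small separation without overlap. At 16 h it was at 5.88, 6.21 and 4.61 in vehicle and 70.8, 64.8 and 72.4 with imiquimod, and the difference was 2.86 (SE 0.18, adjusted p = 5.26e-24). Serpinf1, a secreted serpin, showed 4.32 to 5.25, 4.84 to 6.37 and 2.48 to 3.58 CPM in the first 3 groups and 26.7 to 28.5 with imiquimod at 16 h (difference 3.001, SE 0.22, adjusted p = 3.7e-21). Exo1, an exonuclease of DNA mismatch repair, rose in the imiquimod arm and fell in the vehicle arm, and its effect went from 0.74 to 3.54. Lars2, the mitochondrial leucyl-tRNA synthetase, was called (2.66, SE 1.06, adjusted p = 0.0436) on libraries that scattered widely: 111, 32.9 and 35.7 CPM in vehicle at 6 h, 33.3, 44.1 and 19.6 with imiquimod at 6 h, 21.1, 34.5 and 58.6 in vehicle at 16 h and 43.0, 250 and 99.3 with imiquimod at 16 h. Those ranges overlapped in all 4 groups. Without vehicle 6 h replicate 1 the difference was 1.87 (adjusted p = 0.178), without imiquimod 16 h replicate 2 it was 1.78 (adjusted p = 0.118), and leaving out any 1 of 5 other libraries also ended the call. It was lost as well with no filter on low counts (2.69, adjusted p = 0.0792) and in a fit of the 4 groups alone (2.67, adjusted p = 0.0827).

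DNA replication was the list in which every tested member was higher: 33 of 33, with a median difference of 2.00, against 28.5% higher over all genes. In 19 of them the increase was late and in 12 it was sustained and larger at 16 h. Mcm5 and Mcm6, subunits of the replicative helicase, illustrate both arms. Mcm5 was at 45.2, 45.0 and 50.1 CPM in vehicle at 6 h, 59.8, 64.7 and 69.9 with imiquimod at 6 h, 20.6, 19.1 and 25.8 in vehicle at 16 h and 162, 166 and 155 with imiquimod at 16 h. The 4 groups did not overlap, with the highest level in the imiquimod 16 h libraries and the lowest in vehicle at 16 h, and the difference was 2.41 (SE 0.09, adjusted p = 4.67e-36). Mcm6 had a difference of 1.68 (SE 0.06), from effects of 0.88 and 2.56. The largest in the list were Rrm2 (2.65), the small subunit of the reductase that makes deoxynucleotides, Prim1 (2.61), a primase, Gins2 (2.56), a part of the replicative helicase complex, and Mcm10 (2.51), which helps start forks. The smallest was Fen1, the flap endonuclease (0.63), and Pcna, the sliding clamp, was at 1.03. As a list the imiquimod arm had a median change of 1.15 and the vehicle arm one of -0.89, so both contributed. Fignl1 and Chek1, growing increases outside the list, have roles in DNA repair and checkpoint control, with differences of 2.63 (SE 0.16) and 2.53 (SE 0.23).

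Replication genes are textbook targets of the E2F transcription factors, so their promoters were searched for TTTNGCGC on both strands, in RefSeq windows from 250 bases before to 50 bases after the start site (GRCm38.p6). Of the 27 list members with a window, 8 held a match (29.6%), compared with 2.51% of the 9841 tested genes with a window and 1.38% of all 27025 windows. In the list of mitosis genes, described below, 1 of 25 windows held a match (4%). Stretches of the promoters of Mcm6 (minus strand, chr1:128359736-128359830) and Mcm5 (plus strand, chr8:75109339-75109408) are shown because these helicase genes are described above and each window holds more than 1 match. Capitals mark matches on either strand, overlapping ones merged, and each sequence runs 5′ to 3′ on the strand of its gene.
Mcm6: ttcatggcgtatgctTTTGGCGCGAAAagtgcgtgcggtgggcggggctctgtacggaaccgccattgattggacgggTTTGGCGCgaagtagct
Mcm5: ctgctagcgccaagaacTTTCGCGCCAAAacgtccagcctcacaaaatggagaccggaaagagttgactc
A match is a description of letters and was not tested as a binding site.

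Mitosis genes were higher in the difference nearly as uniformly, 29 of 30 with a median of 1.28, but here the vehicle arm carried it. Their median change was -0.23 in the imiquimod arm and -1.57 in vehicle. Cdk1, the kinase that starts mitosis, was at 26.8, 26.3 and 23.7 CPM in vehicle and 25.9, 25.3 and 25.6 with imiquimod at 6 h, where the groups overlapped. At 16 h it was at 6.25, 9.58 and 7.57 in vehicle and 26.3, 27.0 and 28.6 with imiquimod: the vehicle level had dropped and the imiquimod level lay close to that of 6 h (difference 1.80, SE 0.13, adjusted p = 3.41e-21). Top2a, the topoisomerase that untangles chromosomes, had the same form at higher counts, with 90.6, 98.7 and 102 CPM in vehicle at 16 h and 327, 319.8 and 308 with imiquimod, and no library at 6 h below 334. Ttk, a spindle checkpoint kinase, reversed, at -0.76 and 1.52, as did 5 further members. Kif23, a kinesin of cell division, was the 1 member called lower (-1.05, SE 0.06, adjusted p = 1.15e-26). Its level with imiquimod went from 169, 165 and 171 CPM at 6 h to 56.1, 60.4 and 57.5 at 16 h.

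**Figure D3:**
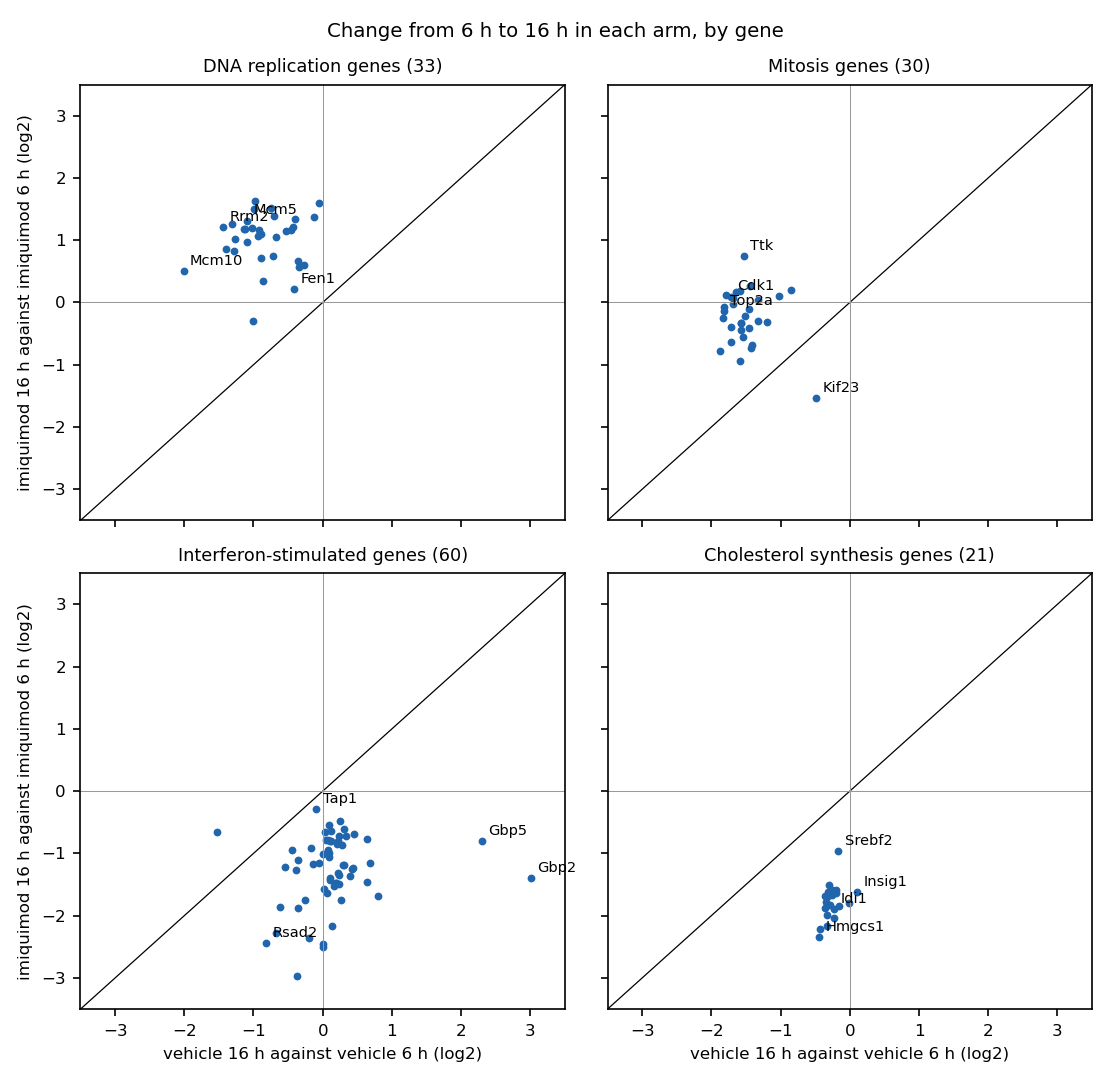
Log2 change from 6 h to 16 h in the vehicle arm (x axis) and in the imiquimod arm (y axis) for the tested genes of 4 lists; a gene on the diagonal has no difference of effects. Replication genes lie up and to the left (both arms), mitosis genes to the left with little imiquimod change, and cholesterol synthesis genes straight below 0, as do most interferon-stimulated genes apart from Gbp2 and Gbp5, whose vehicle levels rose.

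Late decreases were led by Dntt, Cldn1, Ahnak and Ptpro. Ahnak, a very large scaffold protein beneath the cell membrane, was at 3509, 4081 and 3874 CPM in vehicle and 3963, 3997 and 4141 with imiquimod at 6 h. At 16 h it was at 3421, 3598 and 3477 in vehicle and 478, 475 and 483 with imiquimod, so that groups which overlapped at 6 h lay far apart at 16 h (difference -2.95, SE 0.05, adjusted p = 1.77e-56). Dntt, the terminal transferase of lymphoid progenitors that is also used as a pDC gene, went from 37.0 to 41.7 CPM at 6 h to 2.85 to 3.61 at 16 h of imiquimod while vehicle stayed between 31.1 and 38.5 (difference -3.79, SE 0.15, adjusted p = 4.76e-40). Cldn1, a tight junction protein, had an effect of -0.998 at 6 h, at the edge of the 2-fold limit, and of -4.65 at 16 h. Ptpro, a receptor-type phosphatase, was slightly raised at 6 h (0.40) before its decrease at 16 h (-2.54).

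Members of the pDC identity list were among the late decreases. Of its 29 tested members, 25 were lower in the difference and 2 higher (median -1.07), in 7 as late decreases and in 7 as decreases that deepened. On library totals 21 were lower and 5 higher. Tcf4, which encodes E2-2, the transcription factor that specifies pDCs, had an effect of 0.30 at 6 h and -1.14 at 16 h: its levels were 1673, 1629 and 1693 CPM and then 727, 739 and 729 with imiquimod, against 1463, 1295 and 1290.0 and 1620.0, 1621 and 1593 in vehicle (difference -1.44, SE 0.05, adjusted p = 8.22e-40). Siglech, the lectin that marks mouse pDCs, was already low at 6 h, at 298, 299 and 299 CPM with imiquimod against 1165, 1134 and 1164 in vehicle. At 16 h it was at 168, 168 and 171 against 1650.0, 1623 and 1633, a deepening of -1.33 (SE 0.05, adjusted p = 1.11e-40) to which the vehicle arm added a rise of 0.50. Runx2 (-1.10), a transcription factor needed for pDC egress, was lower too. Ccr9, a gut-homing receptor, held its decrease (-2.53 and -2.48, adjusted p of the difference = 0.479). The 2 members called higher were Ly6d (0.22) and Ptprcap (1.17), a partner of CD45 that was a transient decrease. Siglech and Tcf4, which define the labelled cell type, were well above 0 in all 12 libraries. In bulk RNA fewer cells of a type and less RNA per cell cannot be told apart.

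TLR7 itself was a transient increase. Tlr7 was at 187, 159 and 197 CPM in vehicle and 383, 426 and 415 with imiquimod at 6 h, and at 270.2, 269 and 278 in vehicle and 292, 290.2 and 286 with imiquimod at 16 h. Both arms moved toward each other, and the difference was -1.09 (SE 0.08, adjusted p = 1.5e-11). Its adaptor Myd88 (effects of 1.19 and -0.21), the kinase Irak2 (1.002 and -0.32) and the transcription factor Irf5 (1.19 and -0.02) were transient as well. Of the 30 tested genes of the Toll-like receptor list, 19 were lower and 5 higher, but under scaling by totals the split was 13 lower and 11 higher and the list's median was -0.001, so no direction is given for the list. The largest difference of the list was that of Tlr11, which was lower (-2.67, adjusted p = 3.91e-11). Tlr12, a receptor for profilin, rose late (-0.10 and 1.21), and Tlr8 fell late (0.37 and -1.78). Irak3, an inhibitor of this pathway, reversed from down to up (difference 2.10, SE 0.35, adjusted p = 1.64e-07), with imiquimod levels between 1.08 and 6.23 CPM.

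Sign-reversing genes crossed 0 between the times. Hip1, an endocytic adaptor, was at 19.99, 18.7 and 21.3 CPM in vehicle and 76.4, 78.2 and 73.4 with imiquimod at 6 h, and at 10.9, 13.6 and 13.3 in vehicle and 4.46, 3.08 and 6.17 with imiquimod at 16 h. Imiquimod libraries were above all vehicle libraries at 6 h and below all of them at 16 h, and the difference was -3.40 (SE 0.16, adjusted p = 5.67e-33). Sema4f, a semaphorin (1.29 and -1.56), Pou6f1, a POU-domain transcription factor (1.12 and -1.69), and Ccl9, a chemokine (1.26 and -1.34), did likewise. In the other direction Cdca7l, a Myc-interacting nuclear protein, was at 19.4, 22.7 and 20.8 CPM in vehicle and 7.65, 8.23 and 5.70 with imiquimod at 6 h, then at 16.4, 17.3 and 17.9 and 34.4, 30.4 and 33.7 at 16 h (difference 2.47, SE 0.15, adjusted p = 5.33e-27). Wdr90, a centriole protein, and Map3k20, the stress kinase ZAK, had differences of 2.37 (SE 0.13) and 2.31 (SE 0.16). Hist1h2bm, a histone H2B gene with close copies, reversed with a vehicle level that fell by 1.73 and an imiquimod level that changed by 0.59. In the amino acid list Phgdh, the first enzyme of serine synthesis, reversed upward (-0.76 and 1.09) and Slc7a11, the cystine transporter, reversed downward (1.15 and -0.88).

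**Figure D4:**
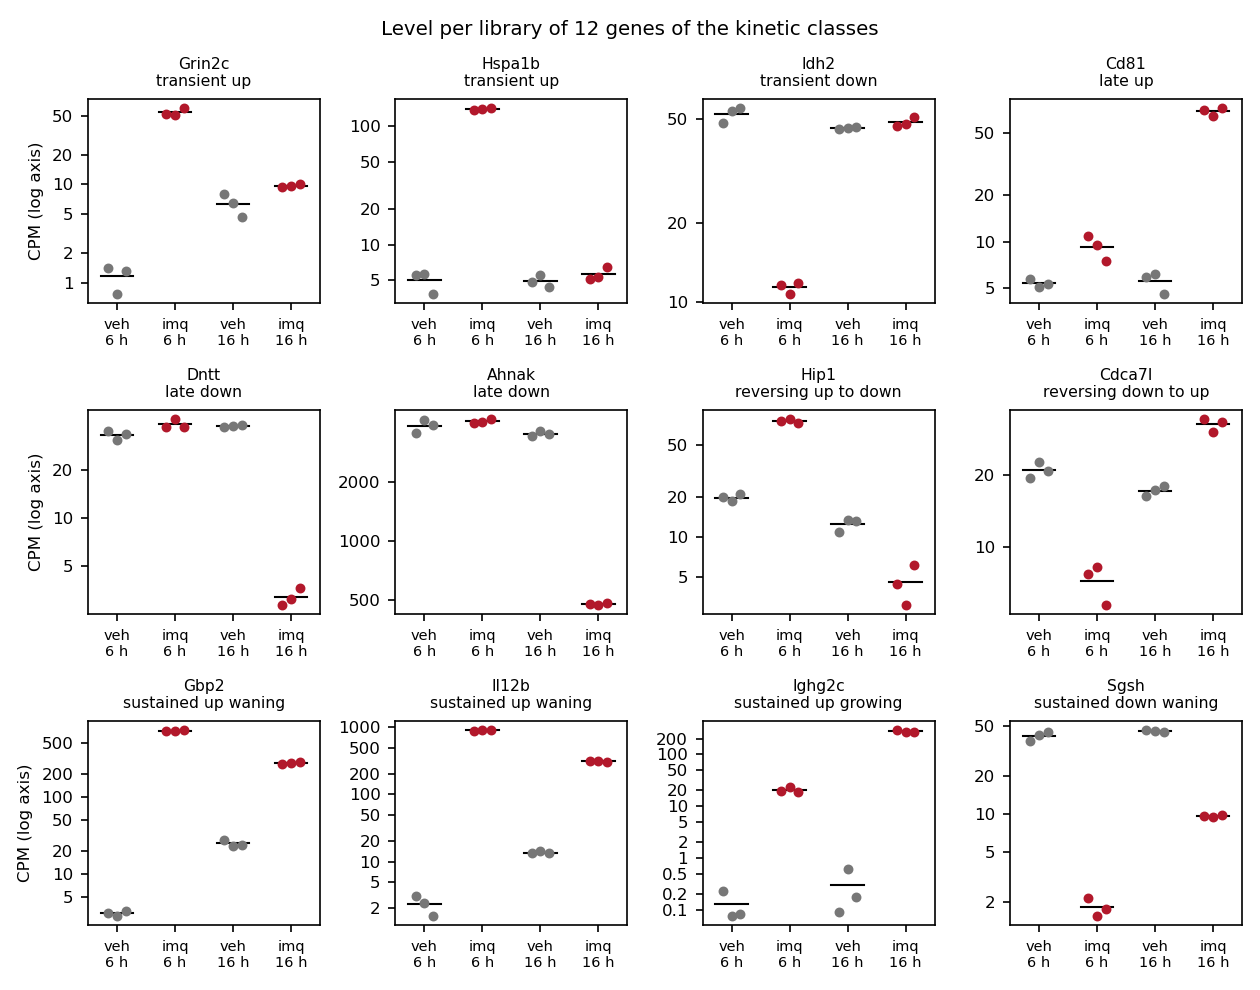
CPM on log axes for 12 genes, 1 point per library and 1 bar per group mean, in vehicle (veh, grey) and imiquimod (imq, red) at 6 h and 16 h, with the kinetic class above each panel. Hspa1b is high only with imiquimod at 6 h, Ahnak and Dntt are low only with imiquimod at 16 h, and Hip1 crosses from above vehicle to below it.

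The interferon-stimulated genes kept large increases while the size of those increases shrank. Of 60 tested members, 54 were lower in the difference and 0 higher (28.4% lower over all genes), with median effects of 5.07 at 6 h and 3.53 at 16 h and a median difference of -1.44. On library totals 49 were lower and 1 higher. In 55 of the 60 the increase was sustained, and 3 (Ifi203, Slfn8 and Samd9l) were transient. Gbp2, an interferon-induced GTPase, was at 3.11, 2.85 and 3.28 CPM in vehicle and 703, 710.4 and 731 with imiquimod at 6 h. At 16 h it was at 27.8, 23.1 and 23.6 in vehicle and 264, 272 and 281 with imiquimod. The groups did not overlap, and the difference of -4.40 (SE 0.14, adjusted p = 1.99e-47) came more from the vehicle arm, which rose by 3.003, than from the imiquimod arm, which fell by 1.39. Gbp5, another of these GTPases, followed (-3.10, vehicle arm 2.30 and imiquimod arm -0.80). Ifi205 (-2.61), a member of the family that senses DNA, moved in the imiquimod arm only (-2.97 against -0.37). Irf7, the factor that amplifies the interferon response, was at 1222, 1292 and 1304 CPM at 6 h and 546, 509.6 and 577 at 16 h of imiquimod, against 37.3 to 41.3 and 45.8 to 64.8 in vehicle (difference -1.67, SE 0.14, adjusted p = 1.54e-07).

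Isg15, the ubiquitin-like modifier, had a smaller difference. It was at 488, 505 and 506 CPM and then 212, 191 and 224 with imiquimod, against 1.32 to 1.72 and 0.827 to 1.69 in vehicle, and the difference was -0.88 (SE 0.31, adjusted p = 0.0144). Its vehicle libraries were low and the call was not stable: without vehicle 16 h replicate 2 the difference was -0.47 (adjusted p = 0.331), and with library totals it was -0.54 (adjusted p = 0.121). Tap1, the peptide transporter, held its increase (1.97 and 1.77). Interferon signals act through promoter elements of the form GAAA, any 2 bases, GAAA. Searched on both strands, with overlapping matches counted once per window, this form was found in 27 of the 48 list promoters with a window (56.2%), in 3.31% of the windows of tested genes and in 3.49% of all windows. The shared letters can be seen in Isg15 (minus strand, chr4:156200859-156200928), Ifit1 (plus strand, chr19:34640764-34640833), Gbp2 (plus strand, chr3:142620553-142620622) and Cxcl10 (minus strand, chr5:92349055-92349124), chosen because they carry the form while their differences ran from -0.88 to -4.40, with Cxcl10 not called. Capitals mark matches on either strand, in the RefSeq windows described above (GRCm38.p6).
Isg15: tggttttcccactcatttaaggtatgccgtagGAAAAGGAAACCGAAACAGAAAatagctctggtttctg
Ifit1: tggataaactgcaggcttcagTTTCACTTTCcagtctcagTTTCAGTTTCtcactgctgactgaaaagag
Gbp2: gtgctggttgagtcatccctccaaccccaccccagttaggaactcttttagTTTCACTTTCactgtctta
Cxcl10: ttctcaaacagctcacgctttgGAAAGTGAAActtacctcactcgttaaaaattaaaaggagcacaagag
The 3 overlapping matches of Isg15 form 1 run, Ifit1 has 2 separate ones, and Gbp2 and Cxcl10 have 1 each in the stretch shown. These matches were not tested as binding sites. The difference of effects was -0.88 for Isg15, -1.03 for Ifit1, -4.40 for Gbp2 and -1.76 for Cxcl10 (adjusted p = 0.14).

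Inflammatory cytokine and chemokine genes were also sustained but smaller at 16 h, with 15 of 24 tested members lower and 0 higher (median -1.62). Cxcl9, a ligand of the receptor CXCR3, had the largest difference, from 146, 159 and 165 CPM at 6 h to 6.21, 7.81 and 8.02 at 16 h of imiquimod, with vehicle at or under 0.174 CPM in every library (difference -4.28, SE 0.97, adjusted p = 0.000898). Il12b, the p40 subunit of interleukin 12, was at 3.03, 2.39 and 1.56 CPM in vehicle and 891, 906 and 902 with imiquimod at 6 h, and at 13.4, 14.2 and 13.2 and 315, 319 and 305 at 16 h. Its vehicle arm rose by 2.53 and its imiquimod arm fell by 1.52, giving -4.06 (SE 0.16, adjusted p = 1.67e-41). For several cytokines the vehicle arm alone reached 2-fold. Ccl5, a T cell attractant, stayed at 228, 249 and 244 and then 227, 218 and 224 CPM with imiquimod while vehicle went from 3.5, 2.54 and 3.94 to 22.1, 19.7 and 18.8 (difference -2.71, SE 0.14, adjusted p = 3.81e-32). Il6 was higher with imiquimod at 16 h than at 6 h (258, 251 and 258 against 156, 146 and 159 CPM), yet its difference was -1.72 (SE 0.67, adjusted p = 0.00745) as vehicle moved from 0, 0.154 and 0.246 to 0.735, 0.798 and 0.783 CPM. Without vehicle 6 h replicate 1 the Il6 difference was -1.15 (adjusted p = 0.102). Ccl3 (-1.56) rose by 1.23 in the vehicle arm and fell by 0.33 in the imiquimod arm, whereas Ccl4 (-1.28) and Tnf (-0.73) fell at least 2-fold in the imiquimod arm. The call for Ccl4 ended without vehicle 16 h replicate 1 (-1.02, adjusted p = 0.0809) and that for Tnf without vehicle 16 h replicate 3 (-0.37, adjusted p = 0.246).

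Some well-known cytokine genes did not pass the test of the difference. Cxcl10 was at 235, 249 and 249 CPM at 6 h and 61.2, 63.4 and 72.6 at 16 h of imiquimod, with vehicle libraries between 0 and 0.246 CPM, and the 95% interval of the difference ran from -3.70 to 0.18. Il10, which dampens inflammation, was at 5.98, 5.62 and 7.17 and 6.65, 6.68 and 6.25 CPM with imiquimod at the 2 times (adjusted p = 0.38), and Lta, a lymphotoxin, at 51.7, 67.3 and 60.4 and 41.9, 38.5 and 36.9 (adjusted p = 0.627). Nos2, the inducible nitric oxide synthase, was at 4.45 to 6.78 and 4.57 to 5.19 CPM (adjusted p = 0.786). Ifng was at 1.57, 1.16 and 1.47 and then 4.39, 5.48 and 4.97 CPM with imiquimod (adjusted p = 0.161). In each of Il10, Lta, Nos2 and Ifng the vehicle groups held at most 3 counts over 3 libraries, so no fold is given. Type I and III interferon genes themselves were under the filter: their 20 members together had 49 counts over the 3 imiquimod libraries at 6 h and 18 at 16 h, against 3 and 1 in vehicle. Ifnb1 had 13 and then 4 of those counts, and 0 in vehicle. Gzmb, granzyme B, went from 34 to 9 counts with imiquimod and had 0 in vehicle at both times.

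NF-kappaB genes and their feedback genes waned as well: 23 of 29 tested members were lower and 2 higher (median -0.76), and on library totals 21 were lower and 5 higher. Tnfaip3, the deubiquitinase A20 that limits the pathway, was at 683, 702 and 703 CPM and then 309.9, 300.1 and 299 with imiquimod, against 86.8 to 90.8 and 85.0 to 87.7 in vehicle (difference -1.17, SE 0.05, adjusted p = 4.25e-32). Nfkbia, the inhibitor IkappaB-alpha, waned too (-0.70). Ptgs2, cyclooxygenase 2 (-2.68), Tnfaip2 (-1.93), the adaptor Traf1 (-1.65) and the adhesion molecule Icam1 (-1.45) had the largest differences. The subunits Nfkb1 (1.44 and 0.20) and Rel (1.83 and 0.82) were transient increases. Tnip1 (2.50 and 2.46), which works with A20, held. The 2 members called higher were Cyld (0.14) and Otud1 (0.88), both deubiquitinases.

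Maturation and co-stimulation genes gave a like count, with 17 of 23 lower and 1 higher (median -1.34). Icosl, the ligand of ICOS on T cells, was at 104, 100.1 and 102 CPM in vehicle and 901, 912 and 918 with imiquimod at 6 h, then at 124, 118 and 115 and 233, 219 and 221 at 16 h, and was the 1 transient increase of the list (difference -2.24, SE 0.05, adjusted p = 2.71e-51). Cd40 (-1.46), Cd86 (-1.14) and Cd80 (-0.74), which signal to T cells, stayed more than 4-fold up at 16 h. Ccr7, the receptor that guides mature dendritic cells to lymph nodes, fell by 0.24 with imiquimod (1329, 1361 and 1372 and then 1158, 1119 and 1155 CPM) and went from 48.3, 49.3 and 48.4 to 157, 142 and 138 in vehicle (difference -1.82, SE 0.06, adjusted p = 1.4e-43). The checkpoint ligand Cd274 (PD-L1) had -0.81, and Tnfsf10 (TRAIL), a death ligand, -2.57. Slamf7 reversed (0.74 and -1.12).

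Immediate-early genes, which respond first to a signal, were lower in 19 of 25 tested members and higher in 1 (14 and 3 on library totals). The exception was Myc, which drives growth and ribosome production, at 86.3, 84.2 and 88.3 CPM and then 121, 119 and 119 with imiquimod, against 3.61 to 4.98 and 3.22 to 4.09 in vehicle (difference 0.74, SE 0.17, adjusted p = 0.000113). Nr4a3 (-1.87), Jun (-1.16) and Dusp2 (-1.04) waned, while Nr4a1 (0.31 and -1.40), Egr2 (-0.79 and -2.08) and Egr3 (-0.95 and -2.42) were late decreases. Among signalling brakes, Socs3 (-1.35) and Cish (-2.70) waned, whereas the 95% interval of the Socs1 difference ran from -0.75 to 0.17.

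Increases that grew between the times were fewer. Ighg2c, an immunoglobulin heavy chain constant gene, was at 19.6, 23.2 and 18.4 CPM and then 291, 273 and 274 with imiquimod, and at or under 0.621 CPM in every vehicle library. Its difference was 2.66 (SE 0.82, adjusted p = 0.0141), but without vehicle 6 h replicate 1 it was 2.02 (adjusted p = 0.222). Of the 7 tested heavy chain constant genes, 5 were higher and 1, Ighd, lower, and the vehicle groups of Ighg2c and Ighe held few counts. Ighg3 was at 3.92, 3.78 and 3.93 CPM and then 21.8, 20.4 and 23.6 with imiquimod, with vehicle at 1.31 to 2.22 and 0.957 to 2.66 (difference 2.55, SE 0.33, adjusted p = 1.92e-10). Igha appeared late, at 2.35, 1.55 and 0.982 and then 21.4, 19.8 and 23.3 CPM with imiquimod, with vehicle libraries scattered from 0.246 to 4.78. Reads of these genes may include transcripts that carry no variable region, which counts per gene cannot separate.

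Antigen presentation on MHC class I divided. The class I genes H2-Q6 (2.28 and 3.81), H2-Q7 (3.08 and 3.99) and H2-Q4 (2.88 and 3.61) had increases that grew, and H2-Q6 went from 75.6, 79.5 and 70.8 to 367, 356 and 378 CPM with imiquimod. These are near-identical paralogs whose reads may have been divided between them. Nlrc5, the activator of class I genes (-0.85), and Psmb10, an immunoproteasome subunit (-0.79), were lower. Of 23 members 7 were higher and 11 lower, and scaling by totals turned this to 14 and 8, so the list has no stated direction. In class II presentation, Ciita, the master activator, was a transient increase (2.32 and 0.64) while H2-Ab1 (1.44 and 1.24) and H2-Eb1 (1.29 and 1.23), chains of the class II molecule, held. Cd36, a scavenger receptor listed as a marker of type 1 conventional dendritic cells, grew from 135, 146 and 127 to 875, 914 and 828 CPM with imiquimod, against 12.7 to 13.2 and 18.1 to 20.2 in vehicle (difference 2.10, SE 0.10, adjusted p = 3.61e-26).

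Ribosome biogenesis genes were higher in 22 of 25 and lower in 0 (median 0.65), with Npm1, a nucleolar chaperone (1.17), and Utp20 (1.18) as late increases. Oxidative phosphorylation genes were higher in 21 of 27 and lower in 0 (median 0.35), and on library totals all 27 were higher (median 0.69). In 26 of those 27 genes the effect was under 2-fold at both times. In glycolysis, Tpi1 was a late increase (1.65) and Pfkp a transient one (-1.57), and 11 of 26 genes were higher and 8 lower (14 and 6 on library totals). Of the amino acid list 11 of 20 were higher and 6 lower (15 and 2 on library totals), led upward by the proline enzyme Pycr1 (1.86) and the serine enzymes Phgdh (1.85) and Psat1 (1.67). Among p53 targets 10 of 20 were higher, of which Phlda3 (2.57) and the death receptor Tnfrsf10b (1.91) rose late, and 7 were lower, of which Cdkn1a, the cell cycle inhibitor p21, had the largest difference (-1.75); on library totals 11 were higher and 4 lower. In the apoptosis list Bcl2l11 (BIM) was transient (2.51 and 0.57), Bcl2l1 (BCL-XL) waned (-1.496) and Bcl2 rose late (0.15 and 1.32).

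**Figure D5:**
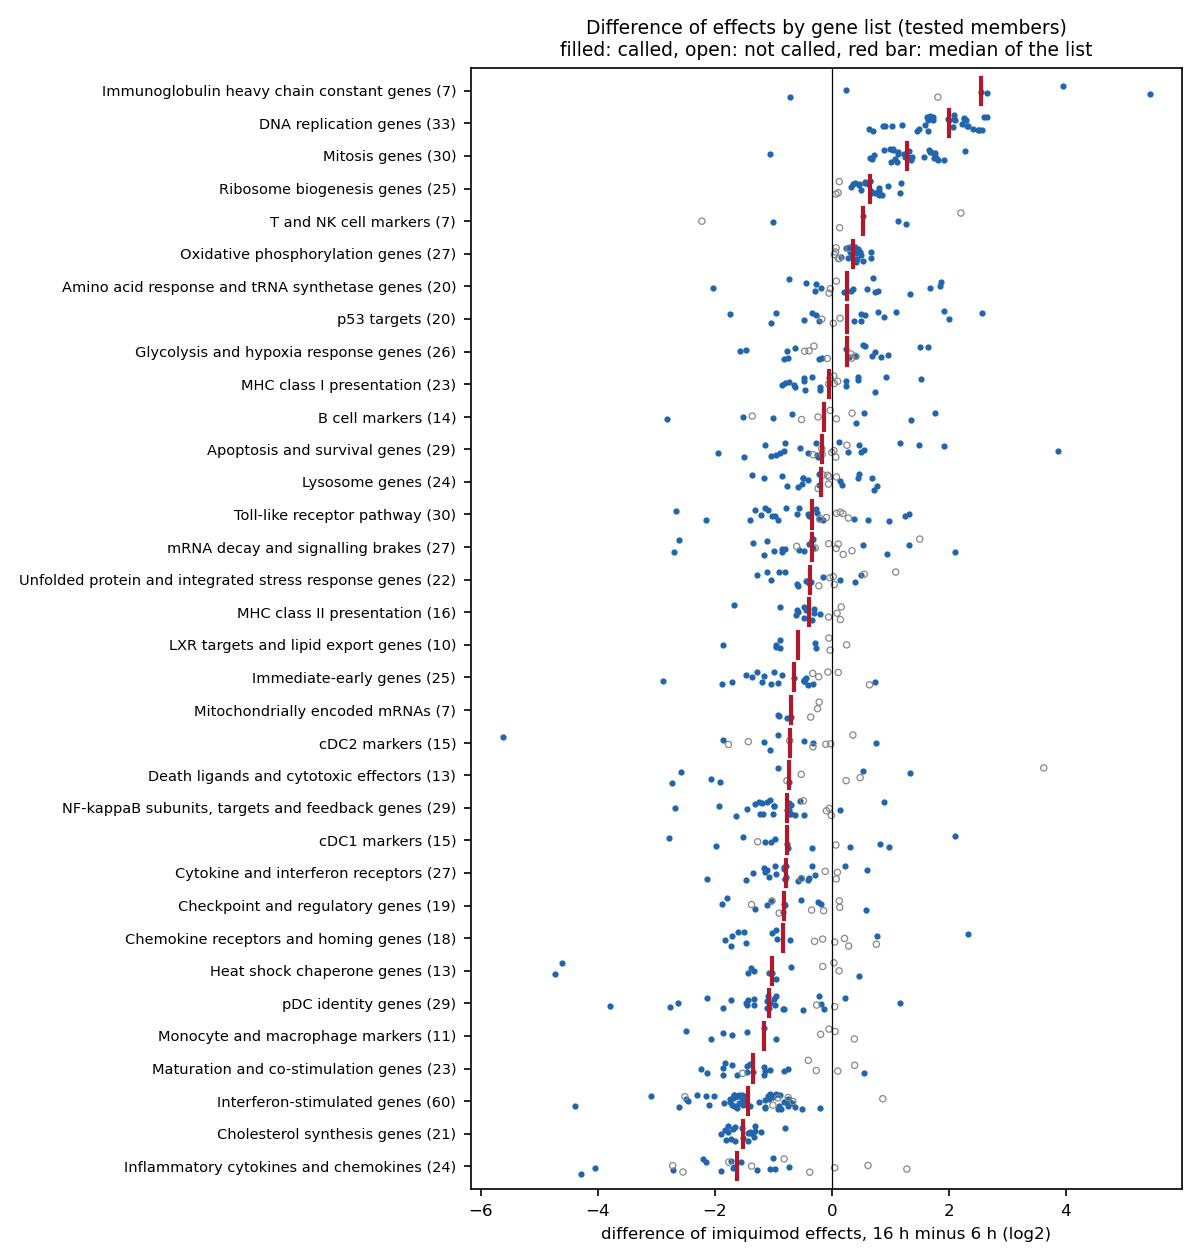
Difference of imiquimod effects on the log2 scale (x axis) for the tested members of the gene lists with at least 7 of them (y axis, number tested in brackets); filled points were called, open points were not, and the red bar is the list's median. DNA replication, mitosis and ribosome biogenesis lie to the right of 0, and cytokine, cholesterol synthesis and interferon-stimulated genes to the left.

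Decreases that deepened were led by Cd209a, Rasgrp4 and Hrh1. Cd209a, a C-type lectin of dendritic cells, was at 22.9, 22.2 and 24.1 CPM in vehicle and 0.588, 0.387 and 0.589 with imiquimod at 6 h, and at 20.2, 25.1 and 21.9 in vehicle at 16 h. It had 0 counts in all 3 imiquimod libraries at 16 h. The difference was called (adjusted p = 1.09e-05), and with the empty group set at 3 counts it was at least 2-fold, at -2.74. Rasgrp4, a guanine nucleotide exchange factor for Ras, was at 39.7, 35.4 and 36.6 CPM and then 4.02, 4.51 and 4.65 with imiquimod, against 108, 108 and 97.3 and then 122, 122 and 122 in vehicle (difference -3.31, SE 0.12, adjusted p = 1.53e-42). Hrh1, the histamine H1 receptor, was at 0.98, 1.45 and 1.28 and then 0.0731, 0.15 and 0.16 CPM with imiquimod, and at 25.7 to 27.5 and 27.5 to 29.5 in vehicle (difference -3.29, SE 0.66, adjusted p = 2.48e-08). Decreases that grew shallower were led by Sgsh, a lysosomal sulfatase, Rnf144b, a ubiquitin ligase, and Tfdp2, a partner of E2F factors. Sgsh was at 38.03, 42.6 and 44.6 CPM in vehicle and 2.16, 1.55 and 1.77 with imiquimod at 6 h, and at 46.5, 45.4 and 45.2 and 9.65, 9.46 and 9.78 at 16 h, so the loss remained without overlap but was smaller (difference 2.26, SE 0.21, adjusted p = 1.27e-18). The values for Rnf144b and Tfdp2 were 2.06 and 1.91.

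Held effects differed between the times by less than 0.5 on the log2 scale over the whole 95% interval. Tent5c, a poly(A) polymerase of secretory cells, was at 19.2, 20.5 and 18.6 CPM in vehicle and 584, 614 and 612 with imiquimod at 6 h, and at 12.8, 11.7 and 12.7 and 328, 317 and 311 at 16 h. Both arms declined together, and the 95% interval of the difference was -0.46 to -0.08. Lgals3bp, a secreted galectin-binding protein (3.81 and 3.66), and Slfn3, a Schlafen gene (3.42 and 3.44), were the other increases named. Tm6sf1 led the held decreases, at 114, 107 and 113 CPM in vehicle against 3.53, 3.10 and 2.95 with imiquimod at 6 h and 95.5, 97.4 and 102 against 3.80, 2.33 and 2.56 at 16 h, with an interval of -0.34 to 0.44. Arhgef18, a guanine nucleotide exchange factor (-4.97 and -5.05), and Sept3, a septin (-4.67 and -4.60), were decreases of similar depth.

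Markers of other cell types moved with the groups. The 11 tested monocyte and macrophage markers summed to 1696 to 1852 CPM in vehicle and 344 to 354 with imiquimod at 6 h, and to 2130.0 to 2204 and 175 to 198 at 16 h. The members were divided: against vehicle 6 were called higher and 5 lower at 6 h, and 3 higher and 6 lower at 16 h. Over all genes 37.7% were called higher and 39.2% lower at 6 h, and 39.1% and 38.1% at 16 h. In the difference 7 were lower and 0 higher (7 and 1 on library totals). Most of the vehicle sum was Ccr2, which pDCs also express, at 1693, 1761 and 1732 CPM in vehicle and 28.5, 28.9 and 28.1 with imiquimod at 16 h. The 14 tested B cell markers summed to 283 to 304 CPM in vehicle and 511 to 548 with imiquimod at 6 h, and to 329.5 to 365 and 380.4 to 398 at 16 h. In the difference 4 were higher and 4 lower. Those calls were 28.6% of the list in each direction, near the 28.5% higher and 28.4% lower of all genes. Most members went against the rise of the sum: 10 were called lower and 3 higher than vehicle at 6 h. At 16 h 11 were lower and 2 higher. For the 15 markers of type 1 conventional dendritic cells the sums were 1707 to 1748, 2485 to 2627, 1504 to 1559 and 2318 to 2415 in the same order, with 4 higher and 9 lower, and Cd8a, which activated pDCs can express, made up 1750.0, 1875 and 1830.0 CPM of the imiquimod sums at 6 h and 937, 884 and 909 at 16 h. Against vehicle 13 of the 15 were called lower and 2 higher at 6 h, and 12 and 2 at 16 h. Clec9a and Xcr1, both on this list, were at 56.6 to 63.9 and 7.25 to 8.74 CPM with imiquimod at 6 h and at 58.7 to 62.7 and 1.53 to 1.76 at 16 h. For the 15 markers of type 2 cells the sums were 984 to 1040.0, 1754 to 1773, 973 to 992 and 1035 to 1057, with 1 higher and 7 lower (3 and 5 on library totals). Here too the sums hid the members: 8 were called lower and 4 higher than vehicle at 6 h. At 16 h 10 were lower and 3 higher. The 7 tested T and NK cell markers summed to 234 to 244, 456 to 467, 307 to 320.4 and 345 to 363, while Cd3d, Cd3e and Cd3g, which define T cells, had 7, 16 and 7 counts over the 12 libraries. The 3 tested neutrophil and mast cell markers summed to 4.395 to 6.32, 2.13 to 3.63, 4.41 to 5.59 and 6.80 to 8.01 CPM in the same order. Csf3r was called higher (1.75) and Prtn3 lower (-1.29), the latter not on library totals. Among the untested members of that list, Ly6g, which defines neutrophils, had 2 counts over the 12 libraries, and Mcpt8 had the most, 38. What part these other cells have in the differences was not tested.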

How the data were processed

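Raw gene counts were used as the authors deposited them, 1 whole-number count per gene and library. Per the submitters' processing notes, reads were aligned with STAR to mm10; the aligner's version, the counting program, its strand setting and the annotation release are not given in the sources used here. Strand could therefore not be relied on for overlapping genes, and genes with close copies are uncertain. Of the tested gene IDs, 99.9% were found in GENCODE M21 without their version number.

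A single edgeR model (edgeR 4.0.16, R 4.3.3) took in the 18 libraries of all 6 groups, with TMM factors, a filter on low counts (filterByExpr with a minimum count of 10) and a robust quasi-likelihood fit with no block, and the difference of effects was tested as 1 contrast of 4 groups. P-values were adjusted by Benjamini-Hochberg over all 14876 genes tested. Standard errors and 95% intervals are Wald values from the fit. CPM are edgeR's, with TMM-scaled library sizes and no prior count. Genes with 0 counts in a group were bounded with 3 counts over that group.

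In each kinetic class and direction the named genes were the 3 or 4 with the largest absolute difference (for held effects, with the largest smaller effect of the 2 times) among annotated genes that averaged 10 CPM or more in the 12 libraries. In each list they were up to 4 called members with the largest absolute difference, and a panel of well-known genes was added. Not all genes chosen from the lists are given in the text. The members of the lists, the panel and the classes were chosen with earlier results of these data known. Other list members in the text, exceptions among them, were chosen after their values were seen.

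Alternatives in scaling and test were edgeR with RLE (relative log expression) factors, edgeR with library totals, and the Wald test of DESeq2 1.42.0. Others were other thresholds, no filter, a fit of the 4 groups alone, a replicate block and leaving out each library. On simulated counts for 14395 genes, the difference test recovered 13.4% of genes changed by 0.5 on the log2 scale, 76.1% at 1 and 92.4% at 2. The simulated dispersion was set above the common value fitted to the real counts (0.000951), and only 66 or 67 genes were changed at each size. These shares are therefore not the power of the test in the real libraries. Promoter windows matched 66.2% of the tested genes and under 80% of every class, so a search by class was void. Motifs of other types were also searched, in each list with windows for at least 80% of its tested members. Their shares are not given here. The untreated libraries and those of 0 h are in no comparison here, but they entered the filter, the scaling and the estimate of spread; a fit of the 4 groups alone tested 14638 genes, with a median difference of 0.012.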

Additional observations from a re-analysis of the deposited data

Results flagged for a closer look

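In the 8 genes named for the reversing classes, the imiquimod effect was called in opposite directions at 6 h and 16 h. The difference was called too, each time by edgeR's quasi-likelihood test. The sorting rule required these calls, and the genes were picked by the size of the difference, so the calls are no separate support. The difference on the log2 scale, with effects at 6 h and then 16 h in brackets, was -3.4 for Hip1 (1.93 and -1.47), -2.86 for Sema4f (1.29 and -1.56), -2.81 for Pou6f1 (1.12 and -1.69) and -2.6 for Ccl9 (1.26 and -1.34). It was 2.47 for Cdca7l (-1.54 and 0.93), 2.37 for Wdr90 (-0.97 and 1.40), 2.32 for Hist1h2bm (-1.30 and 1.02) and 2.31 for Map3k20 (-0.61 and 1.70).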

How the results depend on the processing

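With library totals, 6950 genes were called higher and 2259 lower in the difference, 3706 higher at 6 h, and 7785 higher and 2655 lower in the imiquimod arm. The classes then held 177 transient increases, 830 transient decreases, 159 late decreases, 34 reversals from up to down, 311 from down to up and 499 waning decreases. With the limit at 1.5-fold there were 607 transient increases, 682 transient decreases, 754 late increases, 485 late decreases, 307 growing and 487 held increases, and 491 waning and 559 held decreases. At 4-fold there were 236 transient decreases, 213 late increases, 40 growing, 233 waning, 36 held and 358 undecided increases, and 124 growing, 54 waning, 57 held and 438 undecided decreases. Reversals of at least 2-fold each way numbered 18 from up to down and 28 from down to up.

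Leaving out 1 library gave 4065 to 4342 genes higher and 3922 to 4175 lower. Pairing by replicate number was not seen: 0 of 18 pairs of libraries had correlated deviations over 0.1 (from -0.167 to 0.076 over 8720 genes). In the imiquimod 6 h and vehicle 16 h groups the libraries differed by little more than counting noise, which could hide a shared part. Libraries of imiquimod 16 h and vehicle 6 h differed by more. Whether the libraries were paired therefore cannot be decided from this check. With a replicate block the difference had 4210 genes higher and 4188 lower, and Lars2 lost its call (2.61, adjusted p = 0.0548).

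Of 1518 values of 190 named genes under the other settings, 1496 kept direction and call, 16 lost the call and 6 changed sign. Leaving out 1 library kept 2233 of 2280, with 34 lost calls, 1 gained and 12 changes of sign. Changes of sign concerned values near 0 or few counts. On library totals the differences of Tent5c, Lgals3bp, Arhgef18 and Socs1 were 0.066, 0.184, 0.251 and 0.0505. That of Slfn3 was -0.0101 in edgeR with RLE factors and -0.00802 in DESeq2's Wald test. Leaving out libraries gave -0.053 to 0.163 for Slfn3, -0.187 to 0.205 for Tm6sf1, -0.023 to 0.209 for Sept3, -3.17 to 1.88 for Il10, -2.09 to 2.42 for Nos2 and -1.58 to 0.087 for Lta. Few vehicle counts limit the precision for several cytokine and immunoglobulin genes. The cause of the other changes was not tested.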

Other observations

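Cytokine and interferon receptor genes were lower in 21 of 27 tested members and higher in 2, and on library totals in 16 and 4. Il2ra, the alpha chain of the interleukin 2 receptor, had effects of 5.28 at 6 h and 3.15 at 16 h (difference -2.13, SE 0.11), and the kinase Jak2 had a difference of -1.46. Among chemokine receptor and homing genes 10 of 18 were lower and 2 higher (10 and 5 on library totals). S1pr3, a receptor for the lipid sphingosine 1-phosphate, was the largest of those higher (0.42 and 2.74), whereas Gpr183, which senses oxysterols, was lower (-1.72). In the checkpoint list 11 of 19 were lower and 1 higher (7 and 3 on library totals), led by Il4i1, an amino acid oxidase (-1.88), and Havcr2, the receptor TIM-3 (-1.79). Of the 13 death ligand and cytotoxic genes 6 were lower and 2 higher.

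Lists of mixed direction followed the scale. On library totals mRNA decay and signalling brakes went from 15 lower and 4 higher of 27 to 9 and 8, stress response genes from 13 and 3 of 22 to 6 and 9, lysosome genes from 11 and 7 of 24 to 8 and 13, apoptosis genes from 13 and 9 of 29 to 8 and 12, MHC class II genes from 12 and 0 of 16 to 6 and 5, and B cell markers from 4 and 4 of 14 to 4 and 6. Within them Trib3, a pseudokinase of the integrated stress response, had a growing increase (2.69 and 3.78) and Herpud1, of the stress response list, was lower (-1.04). In lysosomes Lamp2, a membrane protein, was lower (-1.37) and Glb1, the beta-galactosidase, higher (0.77).

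Mitochondrially encoded mRNAs were called lower in 4 of 7 genes and in 0 on library totals. For mt-Co1 the vehicle libraries at 6 h were at 3259, 1992 and 2801 CPM, a wider scatter than the 3502, 3569 and 3575 of vehicle at 16 h. Over all genes too, pairs of vehicle 6 h libraries differed most. Their chi-square per degree of freedom, near 1 for counting noise alone, was 4.21 to 10.5, against 1.32 to 2.56 in the other groups of the contrast. The model fitted 1 spread per gene over all groups, so standard errors do not reflect this. Protein-coding genes made up 79.2% of all genes tested, 91.5% of late increases, 91.2% of reversals from down to up and 72.4% of late decreases. These shares were not tested.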
